A study of Mus musculus with 4 samples.

Results

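The 10 genes described here encode transcription factors of the endothelial lineage: the ETS factors Erg, Fli1, Ets1 and Ets2, the SOXF factors Sox7, Sox17 and Sox18, the blood and vessel factors Tal1 and Gata2, and the venous factor Nr2f2. They were chosen by gene symbol, and all 10 were present among the 54446 genes of the deposited table. Expression was measured by RNA sequencing of endothelium, the inner lining of blood vessels, taken by flow sorting from retinas of C57BL/6 mice at postnatal day 16, with 100 sorted cells in each library. There were 2 libraries from Zeb1-CKO mice, whose genotype the labels give as a knockdown of Zeb1, and 2 from control mice. The labels used here name no Cre line, no promoter and no number of animals behind a library. Values are FPKM, fragments per kilobase of a transcript and scaled to all fragments of its library, so levels can be compared between genes.

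ETS factors share a DNA-binding domain that recognises a GGAA core, and most endothelial genes carry such cores in their promoters or enhancers. ERG and FLI1 keep endothelial genes on in mature vessels, while the SOXF factors act in arterial specification, angiogenesis and lymphatic development. TAL1 and GATA2 act in one complex in blood progenitors and in endothelium, and NR2F2, also called COUP-TFII, gives veins their identity by holding Notch signalling down. ZEB1, the targeted protein, is a zinc-finger repressor that binds the E-box CACCTG.

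Zeb1 had 8.66 and 7.07 FPKM in Zeb1-CKO libraries, against 10.7 and 11.1 FPKM in control libraries. Both Zeb1-CKO values lay below both control values, with limma's adjusted p at 0.235, and a value per gene does not separate a deleted exon from the rest of the transcript. Estimated depth was 16.8 to 22.0 M fragments in Zeb1-CKO and 11.2 to 20.6 M in control libraries. The 10 endothelial markers, none of them a lineage factor described here, were all expressed. Their summed FPKM was 4352 and 4760 in the Zeb1-CKO libraries and 3821 and 4559 in the control libraries. Most of each sum was Cldn5, at 3133 and 3500 FPKM in Zeb1-CKO and 2692 and 3428 FPKM in control libraries. Markers of other cells were present too: the 12 pericyte and smooth-muscle markers summed to 1657 and 1812 FPKM in Zeb1-CKO and 2518 and 2031 FPKM in control libraries, the 5 red blood cell markers to 672 and 1200 FPKM in Zeb1-CKO and 2314 and 2764 FPKM in control libraries, and the 12 microglia and macrophage markers to 23.4 and 10.8 FPKM in Zeb1-CKO and 27.7 and 83.2 FPKM in control libraries. The 10 epithelial genes, among them targets that ZEB1 is known to repress, stood furthest apart, with sums of 524 and 589 FPKM in Zeb1-CKO libraries and 2.94 and 0.978 FPKM in control libraries, and all 9 that were fitted rose. Most of each pericyte and smooth-muscle sum was Rgs5, at 1201 and 1262 FPKM in Zeb1-CKO and 1673 and 1348 FPKM in control libraries. No gene of any of these lists was at 0 in every library.

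None of the 10 lineage factors passed limma's threshold between Zeb1-CKO and control cells (Benjamini-Hochberg adjusted p under 0.05 over 13651 fitted genes), where 3.13% of all fitted genes passed, 2.23% as higher and 0.901% as lower. At an unadjusted p under 0.05 there were 3, Ets2, Gata2 and Nr2f2, which is 30% of the 10 against 17.9% of all fitted genes. All 10 had a mean over the 4 libraries of at least 1 FPKM, the minimum for a gene to enter the fit. The Zeb1-CKO and control libraries did not overlap for 5 of them, against 49.4% of all fitted genes, with 3 above their controls (27.1% of all) and 2 below (22.3% of all). Their median log2 fold change was 0.04, beside 0.02 over all fitted genes, and 5 were positive and 5 negative. The largest was that of Ets2, whose mean was 2.05 times as high in Zeb1-CKO cells and whose adjusted p was 0.0527.

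The levels spanned a wide range. By mean FPKM over the 4 libraries, Sox18 at 238 and Sox7 at 218 stood first and overlapped each other. Fli1 followed at 83.3, apart from its neighbours on either side. Sox17 at 31.9, Ets2 at 29.3, Ets1 at 25.0 and Erg at 19.4 formed a group in which the library ranges of each adjacent pair overlapped. Gata2 at 13.0 lay just apart from Erg above it, and clearly from Nr2f2 below it, and Nr2f2 at 8.01 and Tal1 at 5.30 overlapped. Sox18 and Sox7 were more abundant than at least 98.9% of fitted genes by this mean, while Tal1 stood near the middle, at percentile 48.6.

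**Figure D1:**
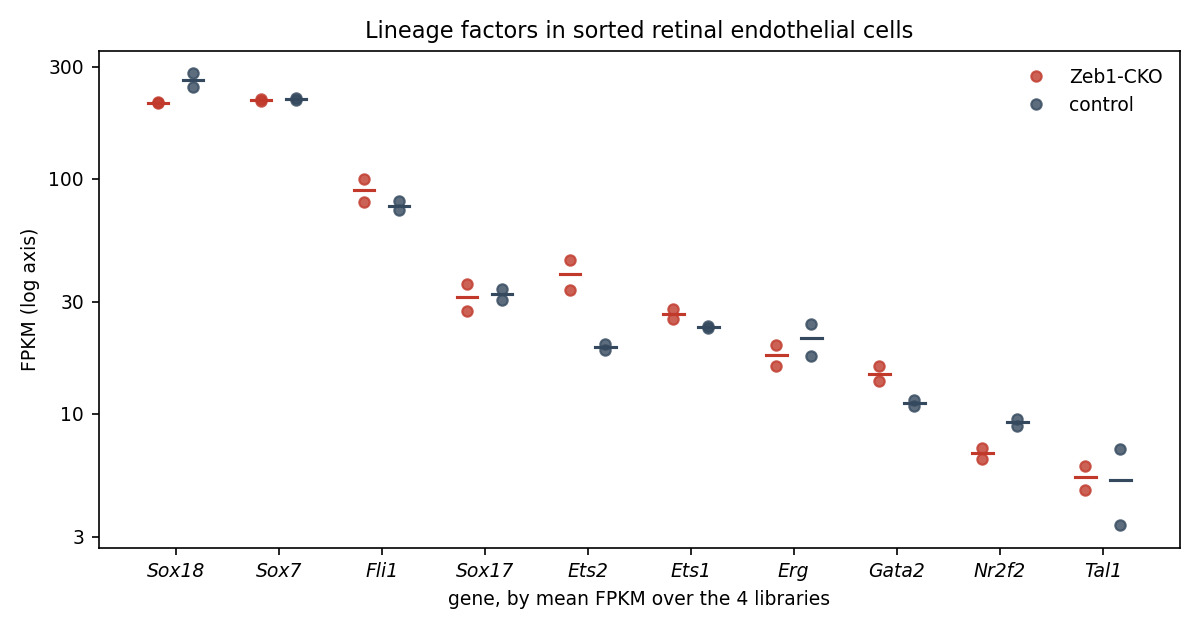
FPKM of each lineage factor on a log axis, with genes ordered by their mean over the 4 libraries; points are single libraries of Zeb1-CKO (red, left) and control (dark, right) cells and short bars their means (n = 2 each). Ets2 shows the widest separation, at 45.1 and 33.6 FPKM in Zeb1-CKO and 19.8 and 18.7 FPKM in control cells, and Sox7 lies between 214 and 222 FPKM in all 4 libraries.

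Of the ETS genes, Erg encodes a factor that sustains VE-cadherin and vessel stability. It lies on the minus strand of chromosome 16 (95359169 to 95586593, mm10), and its deposited value sums over several annotated starts. Erg was at 19.7 and 15.9 FPKM in Zeb1-CKO libraries, against 17.6 and 24.2 FPKM in control libraries. The groups overlapped, with control 2 highest and Zeb1-CKO 2 lowest. Its mean was 17.8 ± 2.64 FPKM in Zeb1-CKO and 20.9 ± 4.65 FPKM in control cells (SD, n = 2 each), a log2 fold change of -0.21 with a 95% interval of -0.71 to 0.28 (adjusted p = 0.638). Without control replicate 2 the difference was 0.0046, so its sign rests on that library.

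Fli1, the closest relative of Erg, was the most abundant of the 4 ETS genes. It was at 99.4 and 80.1 FPKM in Zeb1-CKO libraries, against 73.5 and 80.2 FPKM in control libraries. Only Zeb1-CKO 1 stood above the rest, while Zeb1-CKO 2 fell inside the control range. Its log2 fold change was 0.21 (95% interval -0.17 to 0.60, adjusted p = 0.540).

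Ets1, which acts in angiogenesis and in lymphocytes, was at 25.3 and 27.9 FPKM in Zeb1-CKO libraries, against 23.6 and 23.2 FPKM in control libraries. Both Zeb1-CKO values lay above both control values, but the lower of them exceeded the higher control by less than the gap between the Zeb1-CKO libraries. This gave a log2 fold change of 0.18 (95% interval -0.15 to 0.50, adjusted p = 0.546).

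Ets2 encodes an ETS factor that growth factor signals activate through the RAS and MAP kinase pathway. It was at 45.1 and 33.6 FPKM in Zeb1-CKO libraries, against 19.8 and 18.7 FPKM in control libraries. The groups did not overlap, and the lower Zeb1-CKO library was well above the higher control. The mean was 39.4 ± 8.17 FPKM in Zeb1-CKO and 19.2 ± 0.807 FPKM in control cells (SD, n = 2 each). The log2 fold change of 0.98 (SE 0.18, 95% interval 0.54 to 1.42) had an unadjusted p of 0.00169 and an adjusted p of 0.0527, which did not pass. With a higher filter on expression, a mean of at least 5 FPKM, the adjusted p was 0.04998 and passed. With 1 library left out, the log2 fold change was 0.77 to 1.19 and the adjusted p 0.0890 to 0.187. The epithelial genes were likewise higher in both Zeb1-CKO libraries, and their part in the Ets2 value was not tested.

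These 4 genes sit in the genome as 2 neighbouring pairs, each with 1 gene on either strand, transcribed away from each other. Ets2 (chromosome 16, 95702075 to 95721051, plus strand) begins 115.5 kb from the start of Erg, and Ets1 (chromosome 9, 32636221 to 32757820, plus strand) begins 93.4 kb from the start of Fli1 (32422204 to 32542861, minus strand). No other protein-coding gene is annotated between the 2 starts of either pair. Within a library, the FPKM of Ets2 over that of Erg was 2.30 and 2.11 in Zeb1-CKO cells, against 1.12 and 0.770 in control cells. That of Fli1 over Ets1 was 3.93 and 2.87 in Zeb1-CKO cells, against 3.12 and 3.46 in control cells, with overlap. The ratios of the Erg and Ets2 pair thus did not overlap between the groups and those of the Fli1 and Ets1 pair did. These differences in ratio were not tested.

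Neither of the protein-coding genes next to the Erg and Ets2 pair passed the test. On the Ets2 side, Psmg1, a proteasome assembly chaperone gene, was at 11.95 and 15.2 FPKM in Zeb1-CKO libraries, against 11.5 and 11.0 FPKM in control libraries (log2 fold change 0.24, adjusted p = 0.502). On the Erg side, the potassium channel gene Kcnj15 was at 1.90 and 2.45 FPKM in Zeb1-CKO, against 0.884 and 0.916 FPKM in control libraries (log2 fold change 0.73, adjusted p = 0.134).

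As a share of the summed FPKM of the 4 ETS genes, Fli1 made up 52.5% and 50.8% in the Zeb1-CKO libraries and 54.7% and 54.8% in the control libraries. Ets2 made up 23.8% and 21.3% in Zeb1-CKO, against 14.7% and 12.8% in control libraries. Erg made up 10.4% and 10.1% in Zeb1-CKO, against 13.1% and 16.6% in control libraries. These shares do not depend on the scaling to the library total, but they sum to the whole, so a larger share of Ets2 makes the others smaller. The levels of Fli1 and Erg themselves overlapped between the groups.

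**Figure D2:**
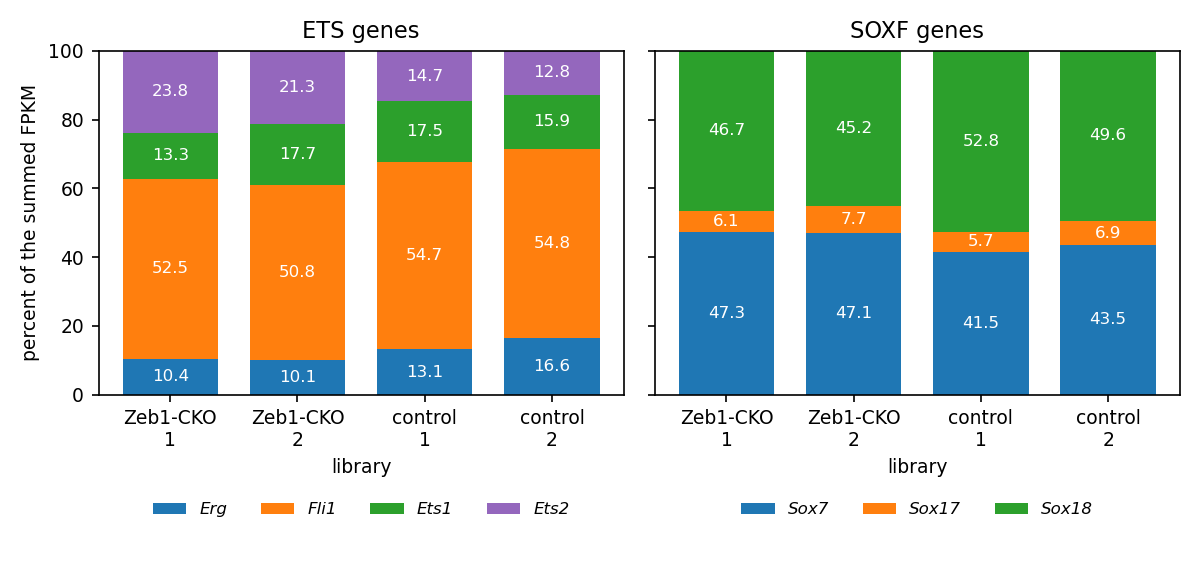
Share of each gene in the summed FPKM of the 4 ETS genes (left) and the 3 SOXF genes (right), in percent, with 1 bar per library. Ets2 takes 23.8% and 21.3% of the ETS sum in the Zeb1-CKO libraries and 14.7% and 12.8% in the control libraries, and Sox18 takes 46.7% and 45.2% of the SOXF sum in the Zeb1-CKO libraries and 52.8% and 49.6% in the control libraries.

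The SOXF genes were the most abundant set, with summed FPKM of 453 and 466 in the Zeb1-CKO libraries and 533 and 497 in the control libraries. Sox7, on chromosome 14 (63943673 to 63950732, plus strand), was at 214 and 220 FPKM in Zeb1-CKO libraries, against 222 and 216 FPKM in control libraries. It varied least between the genotypes, with a log2 fold change of -0.01 (95% interval -0.32 to 0.30, adjusted p = 0.968).

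Sox18, mutated in the ragged mouse with its vascular and hair defects, lies on chromosome 2 (181669836 to 181671640, minus strand). It was at 211.5 and 211.0 FPKM in Zeb1-CKO libraries, against 281 and 246 FPKM in control libraries. Both Zeb1-CKO values lay below both controls, and the control libraries differed from each other by about as much as control 2 did from the Zeb1-CKO libraries. The log2 fold change was -0.32 (SE 0.14, 95% interval -0.65 to 0.02), with an unadjusted p of 0.0614 and an adjusted p of 0.305. Within a library, the FPKM of Sox18 over that of Sox7 was 0.987 and 0.960 in Zeb1-CKO cells, against 1.27 and 1.14 in control cells. The 2 genes were thus near equal in the Zeb1-CKO libraries, and Sox18 was the higher in the control libraries. This difference in ratio was not tested.

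Sox17, which acts in arterial specification, is on chromosome 1 (4490931 to 4497354, minus strand). It was at 27.4 and 35.7 FPKM in Zeb1-CKO libraries, against 30.5 and 34.2 FPKM in control libraries. Both the lowest and the highest value were from Zeb1-CKO libraries. Its log2 fold change was -0.04 (95% interval -0.47 to 0.38, adjusted p = 0.922). Of its 4772 exon bases, 804 are shared with the transcript Gm37587 on the opposite strand, which had 0.819 and 1.41 FPKM in Zeb1-CKO and 0.553 and 1.01 FPKM in control libraries. These libraries do not mark strand, so reads of the 2 genes cannot be told apart there.

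Tal1, a basic helix-loop-helix factor of blood and vessel precursors, was the least abundant and the least precise. Its first annotated start on chromosome 4 (115056426 to 115071755, plus strand) has the upstream sequence shown here because it holds letters of both factor families above, the ETS core and the GATA motif. The 250 bases before this start, chr4:115056176-115056425 (RefSeq, GRCm38.p6, plus strand, 5′ to 3′), have in capitals the ETS core GGAA, or TTCC for the other strand, and the GATA motif GATAA, here as TTATC on the other strand. The matching window before the most 3′ of the Erg starts in the RefSeq table, chr16:95459349-95459598 (GRCm38.p6, minus strand, 5′ to 3′), is set beside it with the E-box CACCTG in capitals, since it is the 1 lineage factor window that holds the motif bound by ZEB1.
Tal1: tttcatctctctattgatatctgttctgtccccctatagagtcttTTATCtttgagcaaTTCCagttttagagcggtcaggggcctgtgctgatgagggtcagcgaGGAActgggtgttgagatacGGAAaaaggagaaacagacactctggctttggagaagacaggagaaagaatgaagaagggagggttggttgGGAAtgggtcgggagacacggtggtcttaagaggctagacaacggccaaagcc
Erg: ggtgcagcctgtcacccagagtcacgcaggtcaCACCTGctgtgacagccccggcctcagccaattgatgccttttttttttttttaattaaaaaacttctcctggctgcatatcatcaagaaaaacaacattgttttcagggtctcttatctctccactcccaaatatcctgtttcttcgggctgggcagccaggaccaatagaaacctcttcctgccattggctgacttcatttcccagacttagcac
In the Tal1 window the ETS core begins at positions -191, -144, -124 and -53 and the GATA motif at -205, counted from the transcript start with -1 as the base before it. The E-box of the Erg window begins at -217 from that start. The RefSeq table held 9 windows for 5 of the 10 genes (Erg, Ets2, Tal1, Gata2 and Nr2f2). On either strand, CACCTG was in 1 of these 9 windows and in 17.2% of all 32851 windows of the same length. GGAA was in 8 of 9 and in 93.4% of all, GATAA in 2 of 9 and in 22.6% of all, and the SOX motif ACAAT in 1 of 9 and in 27.7% of all. The ETS and GATA motifs in capitals do not overlap, and other matches in the Erg window are left in lower case. A match describes letters in a window and is not a site of binding.

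Tal1 was at 4.73 and 6.00 FPKM in Zeb1-CKO libraries, against 7.10 and 3.36 FPKM in control libraries. Both extremes were control libraries, which differed by 1.08 on the log2 scale of FPKM, more than any other pair of replicates among the 10 genes. The log2 fold change of 0.09 had a 95% interval of -0.68 to 0.86 (adjusted p = 0.907). It was -0.36 without control replicate 2 and 0.54 without control replicate 1, so no direction could be given.

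Gata2, which acts in blood stem cells, lymphatic valves and endothelium, lies on chromosome 6 (88193891 to 88207032, plus strand). It was at 13.8 and 15.9 FPKM in Zeb1-CKO libraries, against 10.8 and 11.5 FPKM in control libraries. Both Zeb1-CKO values were above both control values. Its mean was 14.8 ± 1.52 FPKM in Zeb1-CKO and 11.1 ± 0.469 FPKM in control cells (SD, n = 2 each), with a log2 fold change of 0.38 (SE 0.14, 95% interval 0.03 to 0.74). The unadjusted p was 0.0398 and the adjusted p 0.251. Red blood cell and microglia markers, from cells that blood progenitors give rise to, had lower sums in both Zeb1-CKO libraries than in both control libraries. The 4 lymphatic markers, of which 1 was too low to be fitted, had higher sums. These were 48.0 and 49.5 FPKM in Zeb1-CKO and 36.9 and 40.6 FPKM in control libraries. Most of each sum was Pdpn, at 26.2 and 29.1 FPKM in Zeb1-CKO and 20.2 and 20.7 FPKM in control libraries. The sums do not show whether lymphatic cells were present. The part in the Gata2 value of any cells that express these markers was not tested.

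Nr2f2 lies on chromosome 7 (70351944 to 70366735, minus strand). It was at 7.19 and 6.44 FPKM in Zeb1-CKO libraries, against 9.51 and 8.90 FPKM in control libraries. Both Zeb1-CKO values were below both control values, and the groups were further apart than the libraries within either. Its mean was 6.81 ± 0.534 FPKM in Zeb1-CKO and 9.20 ± 0.432 FPKM in control cells (SD, n = 2 each). The log2 fold change of -0.39 (SE 0.14, 95% interval -0.74 to -0.03) had an unadjusted p of 0.0374 and an adjusted p of 0.243. Of its 8625 exon bases, 643 are shared with B130024G19Rik on the opposite strand, which stayed at or under 0.659 FPKM in every library. Pericyte and smooth-muscle markers had lower sums in both Zeb1-CKO libraries as well, with 11 of 11 fitted markers negative, and their part in the Nr2f2 value was not tested. In sorted bulk cells, fewer cells of a type and less RNA per cell cannot be told apart.

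**Figure D3:**
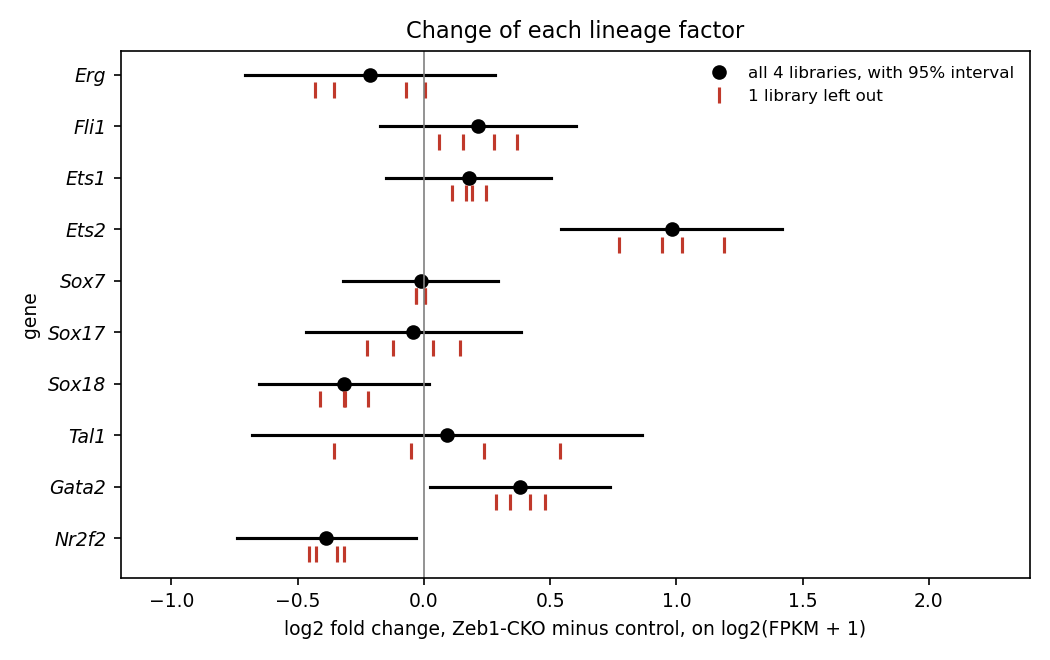
Log2 fold change of each lineage factor, Zeb1-CKO minus control, on log2(FPKM + 1); black points and lines are the estimate from all 4 libraries with its 95% interval, and red ticks are the 4 estimates with 1 library left out. The intervals of Ets2, Gata2 and Nr2f2 exclude 0, before any adjustment for the number of genes tested, and the ticks of Erg, Sox7, Sox17 and Tal1 fall on both sides of 0.

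The genes closest to Ets2 in level and pattern, by Euclidean distance of log2(FPKM + 1) over the 4 libraries, were Hey1 (distance 0.134), Slc16a6 (0.225) and Cd24a (0.274). Hey1, a Notch target and transcriptional repressor, was at 49.1 and 34.2 FPKM in Zeb1-CKO libraries, against 19.4 and 18.0 FPKM in control libraries, with an adjusted p of 0.0530. Slc16a6, a monocarboxylate transporter gene, was at 40.9 and 34.2 FPKM in Zeb1-CKO, against 17.4 and 18.7 FPKM in control libraries, and passed with an adjusted p of 0.0300. These genes were picked for their likeness to Ets2 in the same 4 libraries, so that their similar levels and fold changes follow from the choice.

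The other genes of these pathways were grouped in lists. Of the 22 other ETS genes, 13 were fitted and none passed limma's threshold. At an unadjusted p under 0.05 there were 2, or 15.4% against 17.9% of all fitted genes. The median log2 fold change was 0.14, beside 0.02 over all fitted genes. The most abundant was Elk3, a ternary complex factor gene of endothelium, at 78.4 and 62.9 FPKM in Zeb1-CKO, against 54.0 and 58.2 FPKM in control libraries (adjusted p = 0.36). Elk4, which binds with serum response factor, was at 18.4 and 16.7 FPKM in Zeb1-CKO, against 17.5 and 18.9 FPKM in control libraries. Fli1 and Elk3 were thus the leading ETS transcripts of these cells in all 4 libraries. Among the 9 not fitted were the epithelial ETS genes Elf3, Elf5, Ehf and Spdef, which are named outside the rule for named genes. They were at or under 0.920 FPKM in every library. Elf3 was at 0.164 and 0.920 FPKM in Zeb1-CKO, against 0.0439 and 0.0401 FPKM in control libraries. Spdef was at 0.311 and 0.345 FPKM in Zeb1-CKO, against 0.0556 and 0.304 FPKM in control libraries. Elf5 and Ehf overlapped between the groups. These low values were not tested.

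Of 16 SOX genes outside SOXF, 8 were fitted and Sox11 rose. Sox11, a SOXC factor of developing neurons and other progenitors, was at 11.5 and 11.7 FPKM in Zeb1-CKO libraries, against 3.63 and 3.99 FPKM in control libraries. Its log2 fold change was 1.39 (SE 0.14, adjusted p = 0.0103). The libraries of each genotype agreed closely, and the call was kept without either control library and ended without Zeb1-CKO replicate 1 (adjusted p = 0.0937) or replicate 2 (adjusted p = 0.0904). The inner retinal neuron markers summed to 26.9 and 51.6 FPKM in Zeb1-CKO, against 29.0 and 28.2 FPKM in control libraries, and their part in the Sox11 value was not tested. The part of the epithelial genes, higher in both Zeb1-CKO libraries, in the Sox11 value was not tested. The other 7 fitted SOX genes had log2 fold changes between -0.27 and 0.33, and the median of the 8 was -0.0018. Sox11 was the 1 gene of the 8 with an unadjusted p under 0.05, or 12.5% against 17.9% of all fitted genes.

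Of 23 partners of TAL1 and GATA factors, 16 were fitted and Ldb2 rose. Ldb2 encodes a LIM-domain-binding protein that bridges LMO2-containing complexes on DNA. It was at 48.1 and 50.9 FPKM in Zeb1-CKO libraries, against 25.5 and 23.2 FPKM in control libraries, a log2 fold change of 1.00 (SE 0.13, adjusted p = 0.0224). The groups lay far apart, but leaving out any 1 library ended the call, with log2 fold changes between 0.93 and 1.06 and an adjusted p between 0.0527 and 0.130. The list's median was -0.09, and 7 of the 16 had an unadjusted p under 0.05, or 43.8% against 17.9% of all fitted genes. Its paralog Ldb1, the broadly expressed bridge, was at 11.5 and 11.7 FPKM in Zeb1-CKO, against 14.4 and 16.8 FPKM in control libraries (adjusted p = 0.233). Lmo2, the LIM-only protein gene that links TAL1 to GATA2, was at 14.5 and 15.6 FPKM in Zeb1-CKO, against 21.4 and 82.2 FPKM in control libraries (adjusted p = 0.276). Control 2 stood far above the other 3 libraries for Lmo2, and without it the log2 fold change was -0.48 in place of -1.43. Without control replicate 1 it was -2.38 and passed, with an adjusted p of 0.00537. The microglia and macrophage markers were also highest in control 2, at a sum of 83.2 FPKM against at most 27.7 FPKM in the other libraries, and their part in the Lmo2 value was not tested. Lyl1, the close relative of Tal1, was at 9.82 and 14.2 FPKM in Zeb1-CKO, against 6.49 and 6.25 FPKM in control libraries, with an adjusted p of 0.108. Ldb1, Lmo2 and Lyl1 were named after their values were seen.

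Of 30 other transcription factors of venous, arterial and lymphatic identity, 28 were fitted and Klf2 fell. A negative log2 fold change was found for 20 of the 28, where 47.2% of all fitted genes had one, and 9 had an unadjusted p under 0.05, or 32.1% against 17.9% of all. The median was -0.25. The fitted markers of pericytes and smooth muscle (11 of 11, median -0.36), microglia and macrophages (7 of 7, median -1.23) and red blood cells (4 of 4, median -1.44) were negative too, and their part in the values of this list was not tested. Klf2, a factor induced by blood flow, was at 77.1 and 79.1 FPKM in Zeb1-CKO libraries, against 143 and 146 FPKM in control libraries, a log2 fold change of -0.88 (SE 0.12, adjusted p = 0.0255). Leaving out any 1 library ended its call, with log2 fold changes between -0.90 and -0.87 and an adjusted p between 0.0747 and 0.140.

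Genes downstream of these factors were listed as well. None of 20 endothelial genes with known ETS sites passed limma's threshold, with 5 at an unadjusted p under 0.05 (25.0%, against 17.9% of all fitted genes). Their median log2 fold change was 0.11, with 14 positive and 6 negative values. The most abundant were Cldn5, with a mean of 3317 ± 260.0 FPKM in Zeb1-CKO and 3060 ± 520.4 FPKM in control cells, and Esam, with 313 ± 7.56 FPKM in Zeb1-CKO and 329.6 ± 13.9 FPKM in control cells (SD, n = 2 each). Of 12 genes downstream of SOXF or Notch in arteries, Unc5b, a netrin receptor gene, fell (5.44 and 5.66 FPKM in Zeb1-CKO, against 10.8 and 13.1 FPKM in control libraries, adjusted p = 0.0372). In this list 6 values were positive and 6 negative, with a median of -0.04, and 2 had an unadjusted p under 0.05 (16.7%, against 17.9% of all). The largest absolute log2 fold change was positive, that of Gja5 at 1.22 (adjusted p = 0.0809). Gja5 was at 2.41 and 1.79 FPKM in Zeb1-CKO, against 0.581 and 0.113 FPKM in control libraries. Of 13 venous genes, 10 had a negative log2 fold change and 3 a positive one, where 47.2% of all fitted genes had a negative one. The median was -0.27, and 5 had an unadjusted p under 0.05, or 38.5% against 17.9% of all. The largest absolute log2 fold change was positive, that of Ackr1 at 1.38 (adjusted p = 0.0832). Ackr1 was at 3.05 and 5.58 FPKM in Zeb1-CKO, against 1.36 and 0.664 FPKM in control libraries. Gja5 and Ackr1 are named outside the rule for named genes. In that list Bgn, which encodes the matrix proteoglycan biglycan, fell to 58.1 and 57.2 FPKM in Zeb1-CKO, against 107 and 97.9 FPKM in control libraries (adjusted p = 0.0359), and the adhesion gene Icam1 fell to 94.9 and 96.3 FPKM in Zeb1-CKO, against 191 and 183 FPKM in control libraries (adjusted p = 0.0216). The calls of Unc5b, Bgn and Icam1 all ended without any 1 library. Pericytes also express Bgn, and the lower sums of their markers in Zeb1-CKO libraries stand beside its fall, their part in it not tested.

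**Figure D4:**
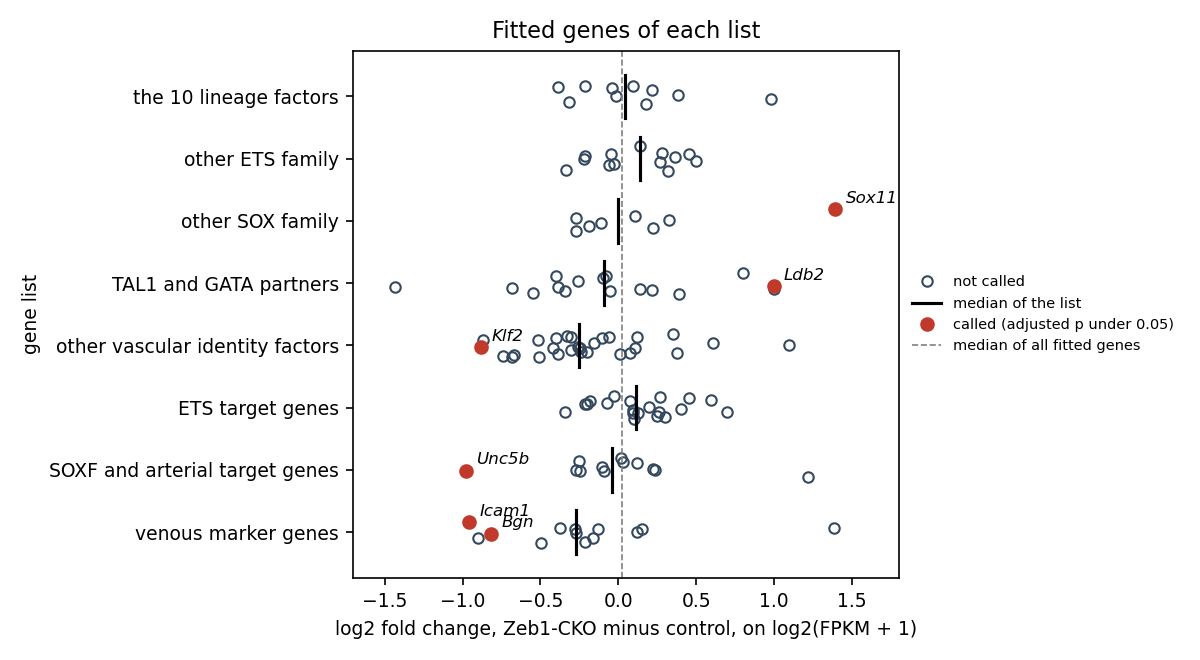
Log2 fold change, Zeb1-CKO minus control, of every fitted gene of the 10 lineage factors and 7 related lists; open circles did not pass, filled red circles passed limma's adjusted p threshold, black bars are list medians and the dashed line is the median of all fitted genes, 0.02. No filled circle stands among the lineage factors, the other ETS genes or the ETS targets, and the medians run from -0.27 for venous genes to 0.14 for the other ETS genes.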

How the data were processed

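RNA was sequenced from 4 libraries of 100 sorted retinal endothelial cells each, per the labels' protocols with SMART-Seq v4 amplification and paired-end reads. The submitters' processing notes name Trimmomatic 0.36, HISAT2 2.1.0, StringTie 1.3.3 and mm10; the sources used here give no settings. The values are gene-level FPKM made and deposited by the authors. The table does not name the unit, so it was inferred from the tools and the column sums.

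Depth was estimated from the steps of low values in genes with 1 transcript, where 21.8% to 30.5% of values lay within 0.02 of a whole step against 4% at random, taking 1 step as 1 fragment. At 2000 bases a step is worth 0.0228 to 0.0446 FPKM. Reads carry no molecular identifiers, so depth overstates the independent molecules.

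Differences were tested with limma 3.58.1 in R 4.3.3 on log2(FPKM + 1), a model of genotype alone with a variance trend on intensity. The fit covered 13651 genes whose mean reached 1 FPKM, with Benjamini-Hochberg adjustment over all of them. The code was run on simulated data with independent noise of the fitted size, which cannot show how the test does on real libraries. Fold changes on this scale understate those of low genes. The labels do not say whether libraries are from different animals; a p-value here reflects the spread among these samples alone, possibly technical.

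The 10 genes and all lists were chosen with earlier results of these data known. Named genes are the 10, Zeb1, called genes of each list or else its 2 most abundant, and the 3 genes nearest to the factor with the largest change; genes outside this rule are marked in the text, apart from the neighbours Psmg1 and Kcnj15 and the overlapping Gm37587 and B130024G19Rik, which were named for their position. Of the marker lists, photoreceptor markers summed to 50.2 and 58.0 FPKM in Zeb1-CKO and 91.7 and 10.6 FPKM in control libraries, Müller glia and astrocyte markers to 385 and 435 FPKM in Zeb1-CKO and 347 and 379 FPKM in control libraries, and lymphatic markers to 48.0 and 49.5 FPKM in Zeb1-CKO and 36.9 and 40.6 FPKM in control libraries. Their 2 most abundant genes are not given one by one, apart from Pdpn among the lymphatic markers.

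Gene spans are from GENCODE M21 (mm10), whose transcription starts matched the table for all 53229 shared identifiers. BLAST 2.17.0 found 0 near-identical copies (a match at 95% identity of at least 200 bases that covers at least 80% of either transcript). Upstream sequences are from RefSeq (GRCm38.p6). Alternatives were other pseudocounts, filters, scalings and variance models, the replicate number as a block, and each library left out. Figures used matplotlib 3.10.9.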

Additional observations from a re-analysis of the deposited data

How the results depend on the processing

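Of 130 values of the 10 lineage factors over 13 alternatives, 122 kept their sign and their side of the threshold. Ets2 passed with a mean of at least 5 FPKM (log2 fold change 0.98, adjusted p = 0.04998), which makes 1 lineage factor called higher there in place of 0; over the alternatives its adjusted p was 0.04998 to 0.222. Signs reversed 7 times, each with 1 library left out and each far from the threshold. With 1 library left out, Erg ran from -0.43 to 0.0046, Sox7 from -0.031 to 0.0057, Sox17 from -0.23 to 0.14 and Tal1 from -0.36 to 0.54. The reversed values were Erg at 0.0046 without control replicate 2, Sox7 at 0.0057 without Zeb1-CKO replicate 1 and 0.0048 without control replicate 1, Sox17 at 0.14 without Zeb1-CKO replicate 1 and 0.04 without control replicate 2, and Tal1 at -0.05 without Zeb1-CKO replicate 2 and -0.36 without control replicate 2.

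Over all genes, 304 were called higher and 123 lower. Without a filter on low values, where more genes were tested, the counts were 70 and 15. With a mean of at least 5 FPKM 169 were higher. With 1 library left out there were 48 to 238 higher and 15 to 64 lower. The replicate block gave 155 higher and 38 lower. Libraries with the same number did not deviate together (r = -0.12 across genes), and the labels do not say that a number marks a shared animal or batch. The crossed block, added after seeing the data, gave 306 higher and 149 lower; in the lists it called 2 vascular identity factors lower in place of 1 and 1 venous gene higher in place of 0.

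Among the lists, each call was 1 gene, or 2 for the venous genes that fell. Without a filter on low values, the calls of other SOX genes, TAL1 and GATA partners, vascular identity factors, arterial targets and venous genes were all 0. With the replicate block, those of TAL1 and GATA partners, vascular identity factors, arterial targets and venous genes were 0. Without an intensity trend, 0 arterial targets and 1 venous gene fell. With quantile normalization, 1 ETS target was called higher. With 1 library left out, 0 to 1 other SOX genes and 0 TAL1 and GATA partners were called higher, and 0 to 1 TAL1 and GATA partners, 0 vascular identity factors, 0 arterial targets and 0 to 1 venous genes lower. These fits differ from the main one in the number of libraries, the number of genes, the scaling or the model, and the cause of the changes was not tested. Precision was lowest for Tal1, whose unadjusted 95% interval ran from -0.68 to 0.86.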
